A study of Homo sapiens with 18 samples.

Results

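The genes described here are 50 genes of DNA replication and S phase, from the proteins that load the MCM helicase at origins to the enzymes that supply deoxynucleotides and the factors that restore chromatin behind the fork. They were taken by gene symbol, with earlier results of these data known, and all 50 were found among the 56269 genes of the table. All 50 also passed the filter on low values, a mean of at least 10 normalized counts over the libraries, which 13686 genes passed. RNA was sequenced from IMR90 cells, human primary lung fibroblasts, in 6 groups of 3 libraries. Each culture first received, for 6 h, PBS or 20 μg/ml of hyaluronan (HA) purified from medium of naked mole-rat skin fibroblasts. The HA was either cNSF-HA, a control heated with heat-inactivated hyaluronidase, or fNSF-HA, partially fragmented by hyaluronidase that was then inactivated by heat. The paper states that these preparations should be the same apart from polymer length. Cells of 3 groups were collected at that point. In the other 3 groups HA or PBS was removed first. Cells were then exposed to 200 μM tert-butyl hydroperoxide (tBHP), an organic peroxide used as an oxidative stressor, for 1 h and collected 6 h after its start. No group was carried through those 6 h without tBHP, so tBHP cannot be told apart from the later collection. All cells were cultured with 15% serum, and the study's methods give all replicates as biological.

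DNA replication is prepared in G1, when the origin recognition complex (ORC), CDC6 and CDT1 load the MCM2 to MCM7 helicase ring onto origins, a step called licensing. In S phase the kinase CDC7 with its activator DBF4, together with cyclin-dependent kinases, switches the loaded rings on by joining them to CDC45 and the GINS complex, and DNA polymerases then copy both strands behind the ring, held to DNA by the sliding clamp PCNA. Many of these genes are known targets of E2F transcription factors, which are held back by the RB family of pocket proteins and released as cells enter S phase. In whole-culture RNA, fewer cells in S phase and less of a transcript per cell cannot be told apart.

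The set of RefSeq promoters used here (GRCh38.p14) held 44 of the 50 genes, and had no entry for MCM4, MCM5, GINS4, RPA2, RPA3 and POLD3. In the 250 bases before the start site, searched on both strands, the letters TTTCCCGC or TTTGGCGC, of the kind E2F proteins bind, occurred in 13 of the 44 promoters (29.5%), against 310 of 9700 promoters of the genes tested (3.20%) and 536 of 27305 promoters of any gene (1.96%). The 13 were those of ORC3, CDT1, MCM3, MCM6, MCM7, GINS2, PCNA, RFC3, POLA1, POLE, LIG1, TYMS and UHRF1. The letters CCAAT, of the kind NF-Y binds, occurred in 25 of the 44 (56.8%), against 35.2% of the promoters of the genes tested. The letters TTTGAA, of the CHR type known from promoters of genes of mitosis, occurred in 1 of the 44 (2.27%), against 8.34%. A match is a description of the sequence and not a binding site. The stretches below run 5′ to 3′ toward the start site and are shown for the 5 genes with the largest fall after tBHP (POLE2, DBF4, CDC7, UHRF1 and RFC3) and for 2 that were higher (PCNA and LIG1), with a match to TTTCCCGC on either strand in capitals.
POLE2, chr14:49688215-49688334 (- strand): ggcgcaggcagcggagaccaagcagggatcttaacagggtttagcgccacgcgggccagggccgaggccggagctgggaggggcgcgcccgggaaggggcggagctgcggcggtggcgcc
DBF4, chr7:87876373-87876492 (+ strand): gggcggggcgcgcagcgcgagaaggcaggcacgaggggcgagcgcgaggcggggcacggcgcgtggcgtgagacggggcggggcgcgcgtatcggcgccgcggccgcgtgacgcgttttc
CDC7, chr1:91500731-91500850 (+ strand): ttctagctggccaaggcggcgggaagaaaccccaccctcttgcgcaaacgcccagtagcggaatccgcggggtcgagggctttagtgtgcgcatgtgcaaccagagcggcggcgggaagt
UHRF1, chr19:4909381-4909500 (+ strand): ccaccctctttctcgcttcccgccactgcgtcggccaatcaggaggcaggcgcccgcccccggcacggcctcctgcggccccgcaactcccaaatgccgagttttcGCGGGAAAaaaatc
RFC3, chr13:33818029-33818148 (+ strand): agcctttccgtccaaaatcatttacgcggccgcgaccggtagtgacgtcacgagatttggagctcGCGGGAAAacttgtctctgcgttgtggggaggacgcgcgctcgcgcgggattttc
PCNA, chr20:5126623-5126742 (- strand): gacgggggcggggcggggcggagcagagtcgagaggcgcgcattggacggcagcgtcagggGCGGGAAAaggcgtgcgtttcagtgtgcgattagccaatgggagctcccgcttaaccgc
LIG1, chr19:48170399-48170518 (- strand): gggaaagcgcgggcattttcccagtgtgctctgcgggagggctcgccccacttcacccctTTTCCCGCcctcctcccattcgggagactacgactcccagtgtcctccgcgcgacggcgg
The windows of POLE2, DBF4 and CDC7 held no match, while those of UHRF1, RFC3, PCNA and LIG1 held 1 each, so genes on either side of the tBHP response shared these letters.

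The libraries held between 20261103 and 26287660 reads counted on genes. All 10 fibroblast markers passed the filter in the IMR90 libraries. Of 8 epithelial, 8 endothelial and 8 immune markers, 6, 6 and 5 were under 10 normalized counts in every library, and the endothelial sum was between 1286 and 1463 without tBHP and between 715 and 1101 after it. The immune sum was between 28.4 and 43.0 without and between 55.3 and 97.6 after tBHP, and the epithelial sum between 1333 and 1518 without and between 697 and 1471 after it (1382 to 1447 and 697 to 1215 with fNSF-HA). The part of these in the results was not tested. Replicates lay farther apart with tBHP: the median SD on the log2 scale within groups was 0.045 without and 0.14 after tBHP for the 50 genes (0.076 and 0.21 for all genes tested). Libraries with tBHP stood apart from their replicates in each pre-incubation. The chi-square per degree of freedom between replicate counts was 1.45 to 2.55 without tBHP. With tBHP it was 29.3 and 64.8 for replicate 2 of the fNSF-HA cells (12.4 between the other 2), 32.4 and 25.7 for replicate 3 of the cNSF-HA cells (2.72) and 16.9 and 14.3 for replicate 1 of the PBS cells (4.06). In replicate 2 of the fNSF-HA cells, the fifth of genes with the highest GC content deviated by a median of -0.63 (log2) from the average tBHP library, and the fifth with the lowest by 0.43, while the high-GC deviation was 0.26 in each of the other 2 libraries named. Among the 50 replication genes, these deviations in replicate 2 of the fNSF-HA cells were -0.22 for the 25 with the higher GC content and 0.22 for the other 25.

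After tBHP, most of the replication genes that moved were lower, in each of the 3 pre-incubations. In PBS cells 27 of the 50 fell and 4 rose (limma on log2 values, adjusted p under 0.05 over all genes tested), where 26.9% of all genes tested fell and 24.2% rose. In cNSF-HA cells 22 fell and 6 rose (background 26.8% and 24.0%), and in fNSF-HA cells 26 fell and 1 rose (22.7% and 19.2%). The median log2 change of the 50 genes was -0.24, -0.18 and -0.22 in PBS, cNSF-HA and fNSF-HA cells, while that of all genes tested was 0.0043, -0.00053 and -0.034. Over 13 settings of the fit, the scaling and the filter, the median stayed between -0.24 and -0.17 (PBS), -0.20 and -0.12 (cNSF-HA), and -0.26 and -0.16 (fNSF-HA). The change was modest for most genes, since 2 of the 50 fell by more than 1 log2 unit on average over the 3 pre-incubations.

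Of the 50 genes, 20 fell in all 3 pre-incubations, where 17.9% of all genes tested did, and 1, PCNA, rose in all 3, where 14.6% did. Under each of the 13 settings 14 of the 20 were called lower in all 3, and the other 6 were so in fewer: ORC2 and PRIM1 in 12, POLD3 in 11, FEN1 in 10, MCM8 in 9 and GINS1 in 7. A further 10 fell in 1 or 2 of the 3 (MCM2, MCM7, PRIM2, POLD1, GINS2, RFC5, MCM5, RFC4, RFC2 and ORC3), 5 rose in 1 or 2 (CHAF1B, POLA2, TYMS, TK1 and LIG1), and none was called in both directions. The remaining 14, POLE, ORC1, RPA1, RFC1, RRM1, CDC45, GINS3, GINS4, RPA3, CHAF1A, ORC6, POLD2, RPA2 and CDT1, passed the threshold in none, with log2 changes between -0.22 and 0.31. Of these, POLE, ORC1, RPA1, CDC45, CHAF1A and POLD2 were each called lower in all 3 in 1 of the 13 settings. For 41 of the 50 the sign was the same in all 3. The share of all genes tested was not computed for this count, nor for those called in 1 or 2 pre-incubations or in none. The libraries with and without tBHP did not overlap, with the tBHP libraries below, for 28 genes with PBS (32.0% of all genes tested), 30 with cNSF-HA (32.3%) and 33 with fNSF-HA (26.2%). They lay above for 5 (31.8%), 7 (31.4%) and 2 (22.6%). The 3 responses share no library.

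**Figure D1:**
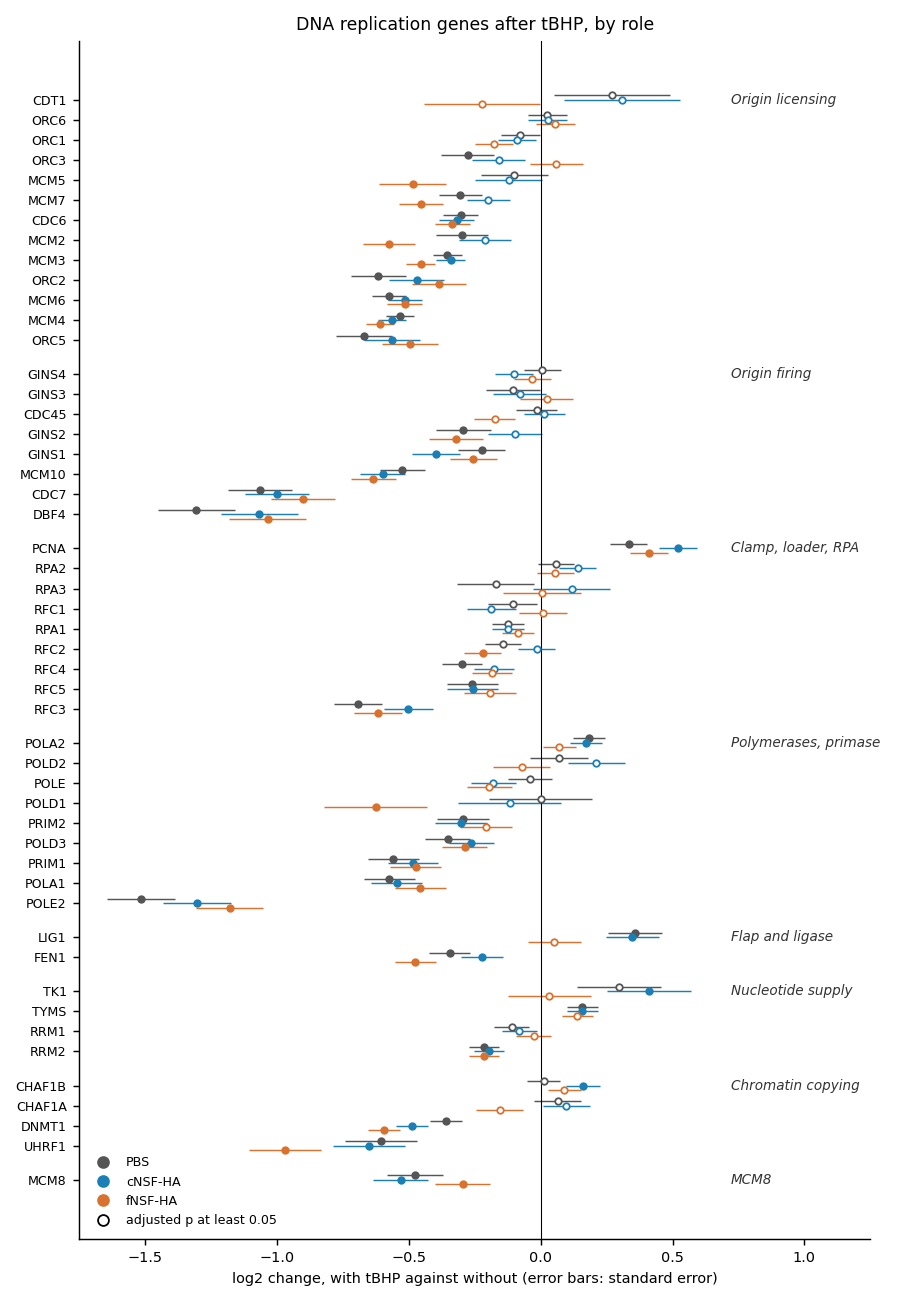
Log2 change after tBHP of the 50 replication genes, ordered by role and by mean change (x axis: log2 change on the log2(normalized count + 1) scale; points: PBS, cNSF-HA and fNSF-HA cells, 3 libraries against 3; bars: standard error; filled: adjusted p under 0.05). POLE2, DBF4 and CDC7 stand farthest to the left with changes from -1.52 to -0.90, and PCNA is the gene with 3 filled points on the right.

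Licensing genes, 13 in number, fell in 9, 6 and 9 cases in PBS, cNSF-HA and fNSF-HA cells (background 26.9%, 26.8% and 22.7%). None of them rose (24.2%, 24.0% and 19.2%). Those that fell in all 3 were ORC2, ORC5, CDC6, MCM3, MCM4 and MCM6. Without tBHP, ORC5 had normalized counts of 583, 589 and 605 (PBS), 539, 598 and 567 (cNSF-HA) and 599, 609 and 613 (fNSF-HA). With tBHP they were 311, 410.4 and 403 (PBS), 373, 372 and 406 (cNSF-HA) and 441, 486 and 371 (fNSF-HA). The tBHP libraries of ORC5, a subunit of the origin recognition complex, lay below all libraries without it, and its log2 changes were -0.67, -0.56 and -0.50 (standard error 0.11, adjusted p = 4.81e-05, 0.000276 and 0.00107). MCM4 had normalized counts of 5225, 5218 and 5188 (PBS), 5381, 5251 and 5178 (cNSF-HA) and 5520.1, 5462 and 5274 (fNSF-HA) without tBHP. Its tBHP libraries had 3659, 3655 and 3475 (PBS), 3609, 3666 and 3416 (cNSF-HA) and 3633, 3609 and 3421 (fNSF-HA). Its log2 changes were -0.54, -0.56 and -0.61 with a standard error of 0.053. The groups of MCM4 did not overlap and its replicates were close to one another, and it had the smallest adjusted p of the 50 genes in cNSF-HA and fNSF-HA cells (1.52e-07 and 6.19e-08). Without tBHP, MCM6 had normalized counts of 3023, 2958 and 2879.6 (PBS), 2941, 2909.8 and 2741 (cNSF-HA) and 2889.5, 3004 and 2898 (fNSF-HA). The values with tBHP were 1888, 2128 and 1937 (PBS), 1935, 2079.9 and 1996 (cNSF-HA) and 1985, 2208 and 1959 (fNSF-HA). MCM6 changed by -0.58, -0.51 and -0.52, again with no overlap. The calls of the ORC genes differed, and the difference between genes was not tested. ORC2 and ORC5 fell in all 3 pre-incubations (ORC2 by -0.62, -0.47 and -0.39) and ORC3 in PBS cells (-0.28). ORC1 and ORC6 passed the threshold in none (-0.08, -0.09 and -0.18, and 0.02, 0.03 and 0.06). ORC1 was called lower in all 3 in 1 of the 13 settings. CDT1, which brings the MCM ring to ORC and CDC6, changed by 0.27, 0.31 and -0.22, with a standard error of 0.22 and adjusted p from 0.251 to 0.444.

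The 6 subunits of the MCM2 to MCM7 ring, which carries each subunit once, differed in transcript level per kb. In PBS cells MCM7 had 2388 ± 56.8 normalized counts per kb of transcript (SD, n = 3), MCM3 1337 ± 25.3, MCM4 1246 ± 4.62, MCM5 1091 ± 22.9, MCM2 802 ± 17.3 and MCM6 791 ± 19.3. MCM2 and MCM6 were within their spread of each other, and the other neighbours in this order were farther apart than their SDs. After tBHP the levels per kb in PBS cells were 1935 ± 116 for MCM7, 1046 ± 23.9 for MCM3, 859.7 ± 25.1 for MCM4, 1022 ± 128 for MCM5, 653 ± 51.4 for MCM2 and 531 ± 34 for MCM6. MCM5, whose level in PBS cells changed least, was then within its spread of MCM3, and MCM4 lay below both. The log2 changes of MCM7, the subunit with the highest level among the licensing genes, were -0.30, -0.20 and -0.45 (adjusted p = 0.00513, 0.0535 and 0.000249). MCM7 had normalized counts of 7561, 7305 and 7225 (PBS), 7510.4, 7253 and 7452 (cNSF-HA) and 7704, 7236 and 7295 (fNSF-HA) without tBHP. In the tBHP libraries they were 6328, 5613 and 5964 (PBS), 6202, 6518 and 6647 (cNSF-HA) and 5672, 4551 and 6129 (fNSF-HA). MCM7 did not overlap between the groups in any pre-incubation, while the fall of MCM5 (-0.10, -0.12 and -0.48) passed the threshold in fNSF-HA cells alone, where replicate 2 was the lowest library and the change ranged from -0.65 to -0.28 on leaving out 1 library. With each library freed of its trend with transcript GC and length, all 6 fell in all 3 pre-incubations, MCM2 by -0.56, -0.46 and -0.67 and MCM5 by -0.34, -0.34 and -0.60.

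**Figure D2:**
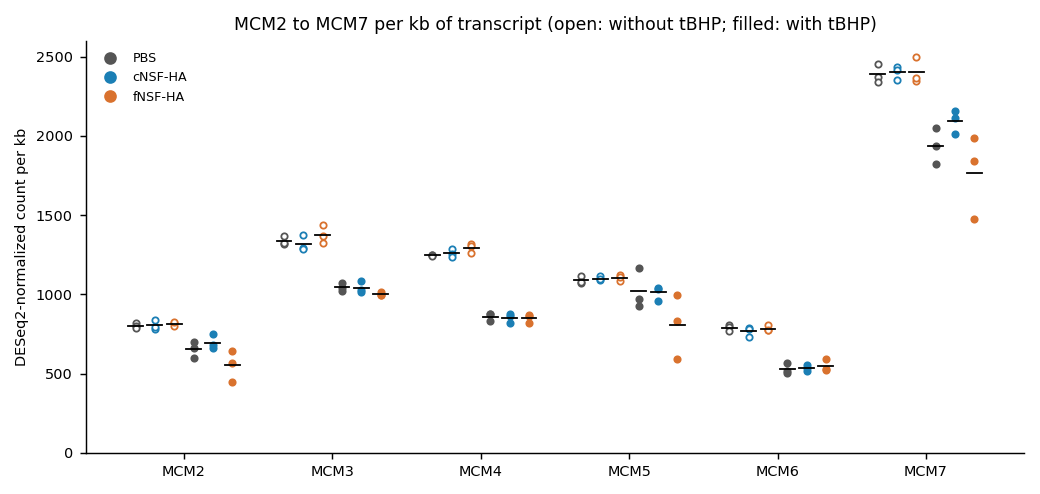
Levels of the MCM2 to MCM7 subunits in the 18 libraries (y axis: DESeq2-normalized counts per kb of the longest coding transcript; open points: libraries without tBHP; filled points: with tBHP; bars: group means). In PBS cells without tBHP the mean of MCM7 is 2388 per kb and that of MCM6 791, and the filled points of MCM2, MCM3, MCM4, MCM6 and MCM7 lie below the open ones in each pre-incubation, while those of MCM5 overlap them in PBS cells.

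The 8 genes of origin firing fell in 5, 4 and 5 cases (background 26.9%, 26.8% and 22.7%) and rose in none (24.2%, 24.0% and 19.2%). They held 2 of the 3 largest falls of the 50 genes. DBF4 and CDC7 encode the regulatory and the catalytic subunit of the kinase that fires licensed origins. Without tBHP, DBF4 had normalized counts of 848, 890.2 and 863 (PBS), 770.0, 769 and 830.2 (cNSF-HA) and 867, 909.5 and 971 (fNSF-HA). The corresponding tBHP libraries held 275, 464 and 336 (PBS), 352, 356 and 425 (cNSF-HA) and 467, 514 and 370.1 (fNSF-HA). Its log2 changes were -1.31, -1.07 and -1.03 (standard error 0.15, adjusted p = 1.07e-06, 1.14e-05 and 1.89e-05), and the level after tBHP was 0.404, 0.477 and 0.488 times that without. All 9 tBHP libraries of DBF4 lay below all 9 libraries without tBHP. CDC7 had normalized counts of 530.1, 446 and 449 (PBS), 434, 473 and 467 (cNSF-HA) and 473, 523 and 481 (fNSF-HA) without tBHP. Those exposed to tBHP had 192, 234 and 257 (PBS), 217, 239 and 229 (cNSF-HA) and 238, 316 and 241 (fNSF-HA). CDC7 changed by -1.06, -1.001 and -0.90 (standard error 0.12, adjusted p = 1.23e-06, 2.75e-06 and 1.03e-05), also with no overlap. Without tBHP, MCM10 had normalized counts of 1268, 1272 and 1262 (PBS), 1250.0, 1264 and 1249 (cNSF-HA) and 1355, 1347 and 1334 (fNSF-HA). With tBHP they were 831, 857 and 957 (PBS), 822, 904 and 763 (cNSF-HA) and 861, 981 and 769.9 (fNSF-HA). MCM10, which helps to activate the helicase, changed by -0.53, -0.60 and -0.63, and its highest tBHP library lay below its lowest library without tBHP. The calls of the 4 GINS subunits differed, and the difference between genes was not tested. GINS1 fell in all 3 pre-incubations (-0.22, -0.40 and -0.26), a call that held in 7 of the 13 settings. GINS2 fell in PBS and fNSF-HA cells (-0.29 and -0.32), and GINS3, GINS4 and CDC45 passed the threshold in none. GINS2 and CDC45 were each called lower in all 3 in 1 of the 13 settings. GINS4 had normalized counts of 1165, 1085 and 1083 (PBS), 1159, 1128 and 1169 (cNSF-HA) and 1085, 1140.1 and 1097 (fNSF-HA) without tBHP. Its tBHP libraries had 1109, 1095 and 1142 (PBS), 1055, 1155 and 1019 (cNSF-HA) and 1102, 1165 and 989.7 (fNSF-HA). GINS4 overlapped between the groups in each pre-incubation, with log2 changes of 0.01, -0.10 and -0.03 (adjusted p = 0.951, 0.254 and 0.758), whose sign changed with the scaling in fNSF-HA cells.

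The 9 genes of the sliding clamp, its loader and the single-strand binding protein RPA held both directions. RFC3, a subunit of the clamp loader, fell. Without tBHP, RFC3 had normalized counts of 1026, 1110.4 and 1093 (PBS), 950.4, 1001 and 1005 (cNSF-HA) and 1181, 1172 and 1140.4 (fNSF-HA). The values with tBHP were 607, 775 and 626 (PBS), 656, 681 and 753 (cNSF-HA) and 743, 840.4 and 699 (fNSF-HA). Its log2 changes were -0.69, -0.50 and -0.62 (standard error 0.092, adjusted p = 7.25e-06, 0.000217 and 3.35e-05), and all tBHP libraries lay below all others. Of the other loader subunits, RFC5 fell in PBS and cNSF-HA cells (-0.26 and -0.26), RFC4 in PBS cells (-0.30) and RFC2 in fNSF-HA cells (-0.22), and RFC1 in none. The 3 RPA genes passed the threshold in none, with RPA1 at -0.12, -0.13 and -0.08 and RPA2 at 0.06, 0.14 and 0.06. PCNA, the clamp itself, which also serves DNA repair and is a known p53 target, went the other way. PCNA had normalized counts of 3711, 3706 and 3582 (PBS), 3709, 3701 and 3596 (cNSF-HA) and 3868, 3887 and 3758 (fNSF-HA) without tBHP. In the tBHP libraries they were 4606, 4725 and 4533 (PBS), 4755, 5390.5 and 5682 (cNSF-HA) and 5456, 4589 and 5307 (fNSF-HA). Its log2 changes were 0.33, 0.52 and 0.41 (standard error 0.071, adjusted p = 0.000773, 1.07e-05 and 0.000148), with every tBHP library above every library without tBHP. PCNA was higher in all 3 pre-incubations under each of the 13 settings, and 0.39, 0.48 and 0.35 with the trend with GC content and length removed. PCNA also had the highest mean level per kb of the 50 genes, 3212 normalized counts per kb over the 18 libraries.

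Among the 9 polymerase and primase genes, 5 fell in each pre-incubation (background 26.9%, 26.8% and 22.7%), with 1, 1 and 0 that rose (24.2%, 24.0% and 19.2%). POLE2, the second subunit of DNA polymerase epsilon, had the largest fall of the 50 genes. Without tBHP, POLE2 had normalized counts of 444, 395 and 409.9 (PBS), 371, 449 and 396 (cNSF-HA) and 418, 412 and 407 (fNSF-HA). The corresponding tBHP libraries held 138, 158 and 139 (PBS), 145, 194 and 153 (cNSF-HA) and 164, 223 and 163 (fNSF-HA). The level after tBHP was 0.35, 0.405 and 0.441 times that without, or -1.52, -1.30 and -1.18 on the log2 scale (standard error 0.13, adjusted p = 3.6e-08, 2.59e-07 and 9.75e-07). Its highest library with tBHP was well below its lowest without. The catalytic subunit POLE did not pass the threshold in any pre-incubation (-0.04, -0.18 and -0.19), but it was called lower in all 3 in 1 of the 13 settings. POLA1 had normalized counts of 988, 966 and 943 (PBS), 964, 957 and 873 (cNSF-HA) and 1023, 942 and 986 (fNSF-HA) without tBHP. Those exposed to tBHP had 615, 685 and 647 (PBS), 688, 688 and 546 (cNSF-HA) and 723, 799.9 and 634 (fNSF-HA). POLA1, the catalytic subunit of polymerase alpha, changed by -0.57, -0.55 and -0.46 with no overlap, and the primase subunit PRIM1 by -0.56, -0.48 and -0.47. POLA2, the accessory subunit of the same polymerase, was instead higher in PBS and cNSF-HA cells. Without tBHP, POLA2 had normalized counts of 1365, 1377 and 1351 (PBS), 1458, 1357 and 1379 (cNSF-HA) and 1438, 1338 and 1391 (fNSF-HA). With tBHP they were 1519.5, 1544 and 1583 (PBS), 1508, 1553 and 1666 (cNSF-HA) and 1411, 1446 and 1522 (fNSF-HA). POLA2 changed by 0.18, 0.17 and 0.07 (adjusted p = 0.0198, 0.0269 and 0.382), and with the trend with GC content and length removed by -0.03, 0.00 and -0.05, so that its call did not hold in that setting. In polymerase delta, POLD3 fell in all 3 pre-incubations (-0.35, -0.26 and -0.29). POLD2 had normalized counts of 2901, 2825 and 2721 (PBS), 2886, 2827 and 2921 (cNSF-HA) and 2933, 2832 and 2808 (fNSF-HA) without tBHP. Its tBHP libraries had 3267, 2756 and 2869 (PBS), 3106, 3259 and 3655 (cNSF-HA) and 2859, 2148 and 3266 (fNSF-HA). POLD2, the polymerase gene with the highest mean level per kb, changed by 0.07, 0.21 and -0.07, which passed in none, and its groups overlapped in PBS and fNSF-HA cells. With the trend removed its changes were -0.21, -0.13 and -0.20, past the threshold in each pre-incubation, so its sign depended on this setting in PBS and cNSF-HA cells. POLD1, the catalytic subunit of polymerase delta, passed the threshold in fNSF-HA cells alone (-0.63, adjusted p = 0.0157), with replicate 2 the lowest library. Without that library its change was -0.28 (adjusted p = 0.0465). The difference between its responses in fNSF-HA and PBS cells, given below, did not pass the threshold. POLD1 was called lower in all 3 pre-incubations in 1 of the 13 settings.

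The flap endonuclease FEN1 and the DNA ligase LIG1, which finish Okazaki fragments one after the other, had changes of opposite sign. Without tBHP, FEN1 had normalized counts of 2583, 2395 and 2509 (PBS), 2616, 2414 and 2449 (cNSF-HA) and 2696, 2527 and 2567 (fNSF-HA). The values with tBHP were 1912, 1872 and 2116 (PBS), 1915, 2264 and 2245 (cNSF-HA) and 1941, 1702 and 1967 (fNSF-HA). FEN1 fell in all 3 pre-incubations (-0.35, -0.22 and -0.48, adjusted p = 0.00135, 0.0245 and 9.49e-05), with no overlap. LIG1 had normalized counts of 1634, 1549.9 and 1660.3 (PBS), 1692, 1593 and 1618 (cNSF-HA) and 1663, 1568 and 1606 (fNSF-HA) without tBHP. In the tBHP libraries they were 2162, 2066 and 1979 (PBS), 2069, 2062 and 2104 (cNSF-HA) and 1736, 1333 and 2015 (fNSF-HA). LIG1 rose in PBS and cNSF-HA cells (0.36 and 0.35, standard error 0.10, adjusted p = 0.00664 and 0.00811), where the groups did not overlap. In fNSF-HA cells it changed by 0.05 (adjusted p = 0.716) and the groups overlapped, and without replicate 2 after tBHP the change was 0.21 and passed the threshold. With the trend with GC content and length removed, LIG1 changed by 0.12, 0.14 and -0.06.

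Of the 4 genes of nucleotide supply, RRM2 fell, TYMS and TK1 rose in 1 or 2 pre-incubations and RRM1 passed the threshold in none. Without tBHP, RRM2 had normalized counts of 10160.0, 10286 and 10225 (PBS), 10078, 9826 and 9957 (cNSF-HA) and 10656, 10469.9 and 10535 (fNSF-HA). The corresponding tBHP libraries held 8331, 8969 and 9165 (PBS), 8495, 8949.6 and 8611 (cNSF-HA) and 8918, 9787 and 8631 (fNSF-HA). RRM2, the S-phase subunit of ribonucleotide reductase, fell by a small amount in all 3 pre-incubations (-0.21, -0.20 and -0.21, adjusted p = 0.00421, 0.00741 and 0.00529), with no overlap. RRM1, the catalytic subunit, changed by -0.11, -0.08 and -0.03. TYMS had normalized counts of 3961, 3783 and 3801 (PBS), 4002, 3912 and 3936 (cNSF-HA) and 4096, 4008 and 3848 (fNSF-HA) without tBHP. Those exposed to tBHP had 4291, 4258 and 4333 (PBS), 4059, 4484 and 4703 (cNSF-HA) and 4398, 4328 and 4429 (fNSF-HA). TYMS, which makes thymidylate, rose by 0.16 with PBS and 0.16 with cNSF-HA (adjusted p = 0.0295 and 0.0297), and its change in fNSF-HA cells was 0.14 (adjusted p = 0.0629). Within each pre-incubation its tBHP libraries were all above those without. Without tBHP, TK1 had normalized counts of 4323, 4171 and 4008 (PBS), 4362, 4198 and 4202 (cNSF-HA) and 4249.9, 4042 and 4064 (fNSF-HA). With tBHP they were 5707, 4680.4 and 5026 (PBS), 5008, 5622 and 6419 (cNSF-HA) and 4562, 2885 and 5683 (fNSF-HA). TK1, the thymidine kinase of the salvage route, rose in cNSF-HA cells (0.41, adjusted p = 0.0382) and changed by 0.30 and 0.03 in PBS and fNSF-HA cells, where replicate 2 after tBHP was far below the other 2. Without that library the change in fNSF-HA cells was 0.31 and passed the threshold. With the trend removed, TYMS changed by 0.04, -0.01 and -0.01 and TK1 by -0.05, -0.03 and -0.07, and neither passed the threshold in any pre-incubation.

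Of the 4 genes that copy chromatin and DNA methylation, 2 fell. UHRF1 had normalized counts of 2301, 2219.9 and 2196 (PBS), 2392, 2271 and 2352 (cNSF-HA) and 2292, 2169.9 and 2253 (fNSF-HA) without tBHP. Its tBHP libraries had 1663, 1377 and 1388 (PBS), 1500.0, 1647 and 1337 (cNSF-HA) and 1150.5, 861 and 1507 (fNSF-HA). UHRF1, which binds hemimethylated DNA behind the fork and recruits DNMT1, changed by -0.61, -0.65 and -0.97 (standard error 0.14, adjusted p = 0.00123, 0.000702 and 1.77e-05), with no overlap. Without replicate 2 after tBHP, the lowest library, its change in fNSF-HA cells was -0.76. Without tBHP, DNMT1 had normalized counts of 6391, 6049 and 6243 (PBS), 6678, 6493 and 6522 (cNSF-HA) and 6759, 6327 and 6323 (fNSF-HA). The values with tBHP were 4950.2, 4817 and 4811 (PBS), 4835, 4940.0 and 4302 (cNSF-HA) and 4314, 4099.7 and 4441 (fNSF-HA). DNMT1, the maintenance methyltransferase, changed by -0.36, -0.49 and -0.59 (adjusted p = 8.85e-05, 3.73e-06 and 3.96e-07), also with no overlap. Of the subunits of chromatin assembly factor 1, CHAF1A passed in none (0.06, 0.10 and -0.15) but was called lower in all 3 in 1 of the 13 settings. CHAF1B had normalized counts of 825, 898 and 879 (PBS), 891, 844 and 838 (cNSF-HA) and 849, 895 and 927 (fNSF-HA) without tBHP. In the tBHP libraries they were 862, 864 and 893 (PBS), 947, 955 and 975 (cNSF-HA) and 969.8, 918 and 954 (fNSF-HA). CHAF1B rose in cNSF-HA cells (0.16, adjusted p = 0.0432), while its libraries overlapped in PBS and fNSF-HA cells. MCM8, a helicase related to the replicative MCM proteins and known from homologous recombination, fell in all 3 pre-incubations, as it did in 9 of the 13 settings. Without tBHP, MCM8 had normalized counts of 1352, 1315 and 1405 (PBS), 1323, 1354 and 1291 (cNSF-HA) and 1263, 1349 and 1277 (fNSF-HA). The corresponding tBHP libraries held 916, 1006 and 1003 (PBS), 1007, 1009.5 and 753 (cNSF-HA) and 963, 1236 and 987 (fNSF-HA). Its log2 changes were -0.48, -0.53 and -0.30 (adjusted p = 0.00105, 0.000434 and 0.0306).

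When each library of a response was left out in turn, 23 of 31 calls held for PBS, 20 of 28 for cNSF-HA and 22 of 27 for fNSF-HA. Of the rises, those of CHAF1B, POLA2, TYMS and TK1 were each lost on leaving out at least 2 of the 6 libraries of a response. In cNSF-HA cells the largest adjusted p was 0.126 for CHAF1B (0.14 on the log2 scale, without cNSF-HA replicate 3), 0.0996 for POLA2 (0.15, without cNSF-HA replicate 2), 0.101 for TYMS (0.11, without tBHP replicate 3) and 0.156 for TK1 (0.32, without tBHP replicate 3). In PBS cells it was 0.0616 for POLA2 (0.17, without tBHP replicate 3) and 0.0915 for TYMS (0.15, without PBS replicate 2). The rises of PCNA and of LIG1 held without any single library. Among the falls called in all 3 pre-incubations, GINS1 changed by -0.16 in PBS cells without tBHP replicate 1 (adjusted p = 0.189) and by -0.15 in fNSF-HA cells without tBHP replicate 3 (0.168). FEN1 changed by -0.14 in cNSF-HA cells without tBHP replicate 1 (0.141) and MCM8 by -0.23 in fNSF-HA cells without tBHP replicate 1 (0.14). POLD3 changed by -0.21 in cNSF-HA and in fNSF-HA cells, without tBHP replicate 3 of each (0.0669 and 0.0583). The other 16 of these 20 genes kept their calls in all 3. Of the genes that fell in 1 or 2 pre-incubations, RFC5 lost its call on leaving out any of 5 of the 6 libraries, with PBS (-0.18 and adjusted p = 0.171 without tBHP replicate 1) as with cNSF-HA (-0.21 and 0.134 without cNSF-HA replicate 3). With PBS, the calls of ORC3 (-0.21 and 0.126 without tBHP replicate 1), PRIM2 (-0.20 and 0.114 without tBHP replicate 1), GINS2 (-0.25 and 0.0923 without PBS replicate 1) and MCM2 (-0.24 and 0.0793 without tBHP replicate 2) were also lost. So were those of PRIM2 with cNSF-HA (-0.23 and 0.0819 without tBHP replicate 1), and of GINS2 (-0.23 and 0.0606 without tBHP replicate 2) and RFC2 (-0.18 and 0.089 without fNSF-HA replicate 1) with fNSF-HA.

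**Figure D3:**
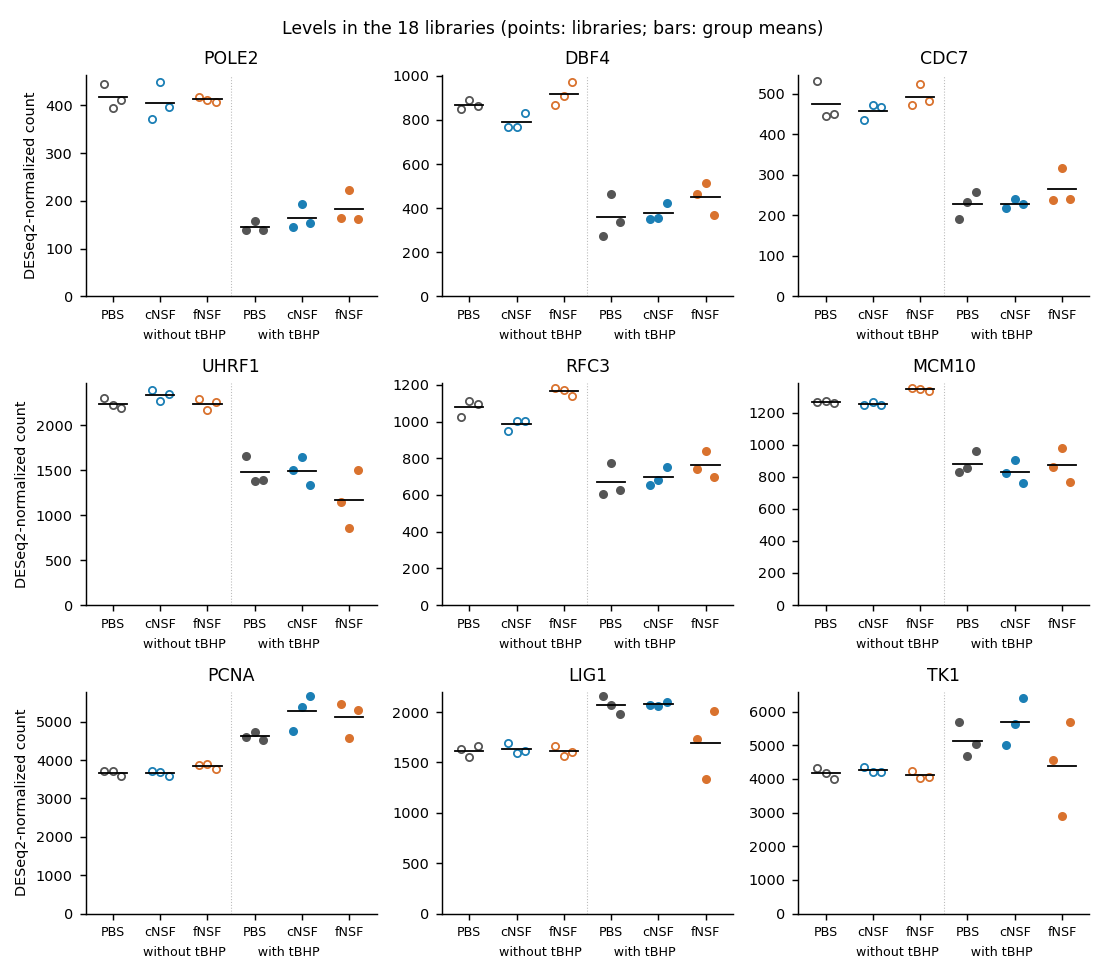
Levels of 9 replication genes in the 18 libraries (y axis: DESeq2-normalized counts, starting at 0; open points: without tBHP; filled points: with tBHP; bars: group means of 3 libraries). POLE2, DBF4, CDC7, UHRF1, RFC3 and MCM10 are lower after tBHP in every library, PCNA is higher in every library, and in LIG1 and TK1 the lowest fNSF-HA library with tBHP, replicate 2, lies below the libraries without tBHP.

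Genes of replication outside the 50, 42 of 43 listed genes tested, also fell more often than they rose: 4 rose and 22 fell with PBS, 6 and 25 with cNSF-HA and 5 and 22 with fNSF-HA, with median log2 changes of -0.23, -0.34 and -0.29. Of all genes tested, 24.2%, 24.0% and 19.2% rose and 26.9%, 26.8% and 22.7% fell, and the difference between this list and the 50 genes was not tested. ATAD5, which unloads PCNA, changed by -1.17, -1.34 and -1.10, UNG, a uracil glycosylase of repair at the fork, by -1.14, -1.13 and -1.13 and DCK, a kinase that salvages deoxycytidine, by -1.17, -0.97 and -0.84. UNG had 867, 761 and 842 normalized counts in PBS cells and 386, 369 and 362 after tBHP. The largest rises in this list were those of POLD4 (1.08, 0.92 and 0.68), a small subunit of polymerase delta, RRM2B (0.68, 0.52 and 0.89), the p53-controlled counterpart of RRM2, and TOP1 (0.58, 0.50 and 0.54), a topoisomerase. RRM2B had 603, 706 and 643 normalized counts in PBS cells and 881, 1201 and 1061 after tBHP, so it was higher where RRM2 was lower. All 6 passed the threshold in all 3 pre-incubations.

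Of 13 E2F and pocket protein genes, 12 were tested, and 2, 3 and 3 rose while 5, 6 and 7 fell in PBS, cNSF-HA and fNSF-HA cells. The shares of all genes tested were 24.2%, 24.0% and 19.2% for rises and 26.9%, 26.8% and 22.7% for falls. E2F5 changed by -2.13, -1.97 and -1.80, with 70.5, 82.1 and 82.2 normalized counts in PBS cells and 15.9, 21.8 and 14.2 after tBHP. RB1 changed by -0.73, -0.87 and -0.51 and RBL1, another pocket protein, by -0.66, -0.75 and -0.63. E2F7, a repressor of E2F targets that p53 is known to induce, rose by 1.08, 0.79 and 1.16, from 2109.8, 2241 and 2298 normalized counts in PBS cells to 4506, 4781 and 4790.2. Genes of mitosis had lower medians than the replication genes: of 24 tested, 21, 21 and 22 fell and 0 rose, with medians of -0.86, -0.77 and -0.64. CENPE, a kinetochore motor, changed by -1.85, -1.66 and -1.42, TTK, a checkpoint kinase, by -1.27, -1.13 and -0.89, CCNB1, the mitotic cyclin, by -1.16, -0.99 and -1.01 and CDC20, which activates the anaphase-promoting complex, by -1.06, -0.87 and -1.20. The difference between the mitosis and the replication genes was not tested.

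**Figure D4:**
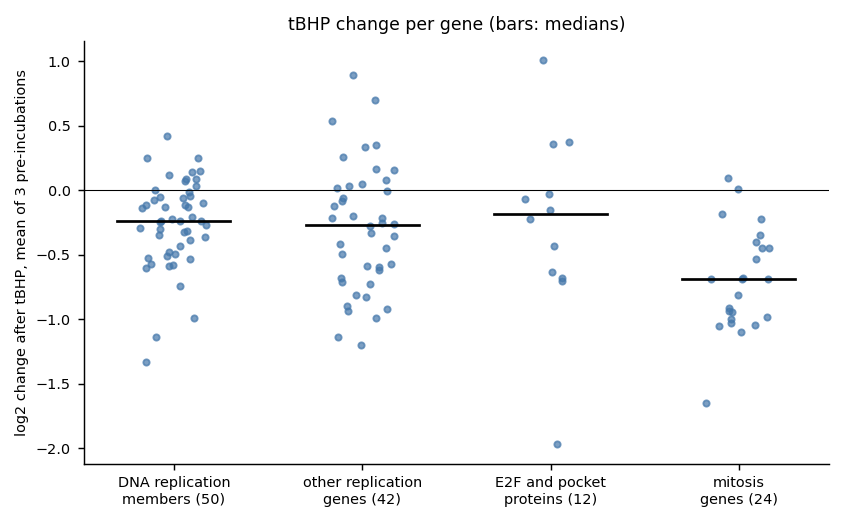
Log2 change after tBHP per gene, as the mean of the 3 pre-incubations (y axis), for the 50 replication genes, 42 other replication genes, 12 E2F and pocket protein genes and 24 mitosis genes (points: genes; bars: medians; the sideways spread of points carries no value). The replication genes reach from -1.33 for POLE2 to 0.42 for PCNA, and the bar of the mitosis genes lies lowest.

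The groups without tBHP show whether the replication genes differed with HA alone. No gene of the 50 passed the threshold between cNSF-HA and PBS cells, fNSF-HA and PBS cells or cNSF-HA and fNSF-HA cells in limma, edgeR or DESeq2 (0 genes, background 0.0% in limma for each comparison), and 0, 0 and 1 had an unadjusted p under 0.05 in limma, against 0.921%, 0.796% and 1.51% of all genes tested. The 95% intervals of the differences were 0.19 log2 units wide to either side at the median and lay within 1 log2 unit of 0 for all 50 genes in each comparison. The gene with the smallest p in cNSF-HA against fNSF-HA cells was RFC3, with 950.4, 1001 and 1005 normalized counts against 1181, 1172 and 1140.4, a difference of -0.24 (unadjusted p = 0.0176, adjusted p = 1 in limma). RRM2 and DBF4 followed, with differences of -0.08 and -0.21. For all 3 genes the cNSF-HA libraries lay below the fNSF-HA libraries. Such a lack of overlap was seen for 16 genes below and 2 above in this comparison (17.1% and 7.91% of all genes tested), 4 below and 3 above between cNSF-HA and PBS cells (8.33% and 6.89%), and 0 below and 11 above between fNSF-HA and PBS cells (4.82% and 9.17%). The comparisons share libraries. When only these 6 libraries were fitted, whose spread is smaller than after tBHP, 4 of the 50 were called in that comparison (background 7.16%): RFC3, DBF4 and RRM2 were lower and POLD1 higher in cNSF-HA cells, the last with 1255, 1250.1 and 1177 against 1086, 1091 and 1128 normalized counts. The transcript GC content was 39.1% for RFC3, 40.1% for DBF4, 45.8% for RRM2 and 65.0% for POLD1. Against PBS cells, the smallest p-values were those of RFC3 (-0.13), DNMT1 (0.08) and POLD1 (0.20) for cNSF-HA and of PRIM1 (0.14), CDC6 (0.10) and RFC3 (0.11) for fNSF-HA, with adjusted p = 1 for each. The difference of PRIM1 was 0.087 without PBS replicate 1 and 0.094 without fNSF-HA replicate 2. PRIM1 had normalized counts of 316, 368 and 345 (PBS), 353, 341 and 348 (cNSF-HA) and 359, 406 and 372 (fNSF-HA) without tBHP. Those exposed to tBHP had 254, 219.9 and 223 (PBS), 237, 239 and 269 (cNSF-HA) and 290.3, 281 and 247 (fNSF-HA). Without tBHP, CDC6 had normalized counts of 1728, 1728 and 1786 (PBS), 1821, 1739 and 1772 (cNSF-HA) and 1892, 1823 and 1889 (fNSF-HA). With tBHP they were 1295, 1516 and 1446 (PBS), 1372, 1482 and 1419 (cNSF-HA) and 1459, 1557 and 1425 (fNSF-HA). PRIM1 overlapped between fNSF-HA and PBS cells without tBHP, and the fNSF-HA libraries of CDC6 lay above those of PBS cells.

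After tBHP, no replication gene passed the threshold between pre-incubations in limma or edgeR either, but the differences were larger. Between cNSF-HA and fNSF-HA cells 0 of 50 were called (background 0.0%), and 16 had an unadjusted p under 0.05 (32.2% of all genes tested). DESeq2 called 2, MCM2 and POLD1, both higher in cNSF-HA cells (6.74% of all genes). MCM2 had normalized counts of 2972, 2895 and 2848 (PBS), 3031, 2831 and 2872 (cNSF-HA) and 2961, 2891 and 2993 (fNSF-HA) without tBHP. Its tBHP libraries had 2539, 2169 and 2389.6 (PBS), 2453, 2710.0 and 2395 (cNSF-HA) and 2054, 1617 and 2335 (fNSF-HA). The difference of MCM2 was 0.35 (standard error 0.099, adjusted p = 0.0981 in limma), and the cNSF-HA libraries lay above the fNSF-HA libraries. Without tBHP, POLD1 had normalized counts of 1073, 999 and 1135 (PBS), 1255, 1250.1 and 1177 (cNSF-HA) and 1086, 1091 and 1128 (fNSF-HA). The values with tBHP were 1297, 920.0 and 1019 (PBS), 1091, 1107 and 1196 (cNSF-HA) and 811, 439 and 1019 (fNSF-HA). The difference of POLD1 was 0.66 (standard error 0.20, adjusted p = 0.0981) and that of LIG1 was 0.31. Without replicate 2 of the fNSF-HA cells the differences were 0.20 for MCM2, 0.31 for POLD1 and 0.15 for LIG1 (adjusted p = 0.572 for each). For MCM2 and POLD1, replicate 2 of the fNSF-HA cells was the lowest library and replicate 3 lay close to the cNSF-HA libraries. The libraries did not overlap for 4 genes above (MCM2, MCM7, LIG1 and POLD1; 5.07% of all genes tested) and 0 below (8.29%).

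Between fNSF-HA and PBS cells after tBHP, 0 of 50 were called (background 0.139%) and 13 had an unadjusted p under 0.05 (22.7%), and DESeq2 called 2 (3.23%), ORC3 higher and DNMT1 lower in fNSF-HA cells. ORC3 had normalized counts of 792, 852 and 809 (PBS), 789, 803 and 779.5 (cNSF-HA) and 811, 831 and 784 (fNSF-HA) without tBHP. In the tBHP libraries they were 614, 729 and 684 (PBS), 719.9, 769 and 641 (cNSF-HA) and 833, 991 and 722 (fNSF-HA). ORC3, whose fNSF-HA libraries overlapped those of PBS cells, differed by 0.32 (adjusted p = 0.123 in limma), LIG1 by -0.31 (0.13) and DNMT1 by -0.18 (0.131). Without replicate 2 of the fNSF-HA cells these were 0.20, -0.14 and -0.15. The fNSF-HA libraries lay above for 3 genes, POLE2, CHAF1B and ORC6 (6.86%), and below for 3, DNMT1, MCM3 and POLE (5.11%). Between cNSF-HA and PBS cells 0 were called (background 0.0%) and 3 had an unadjusted p under 0.05 (8.64%) in limma, and DESeq2 called 0. These 3 were PCNA (0.19, adjusted p = 0.554), GINS1 (-0.21, 0.567) and CHAF1B (0.13, 0.576), and the cNSF-HA libraries of PCNA and CHAF1B were all above those of PBS cells (2 above, 4.57% of all genes tested, and 0 below, 5.01%). Without tBHP, GINS1 had normalized counts of 747, 809.9 and 825 (PBS), 751, 813 and 764 (cNSF-HA) and 818, 788 and 825 (fNSF-HA). The corresponding tBHP libraries held 623, 728 and 690.4 (PBS), 572, 627 and 568 (cNSF-HA) and 704, 756 and 588 (fNSF-HA). GINS1 overlapped between cNSF-HA and PBS cells after tBHP.

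The tBHP response itself was compared between pre-incubations as an interaction. None of the 50 genes passed the threshold in limma, edgeR or DESeq2 in any of the 3 pairs (background 0.0% in limma for each). An unadjusted p under 0.05 in limma was found for 0 between cNSF-HA and PBS cells (4.06% of all genes tested), 5 between fNSF-HA and PBS cells (6.88%) and 3 between cNSF-HA and fNSF-HA cells (3.89%). The response of PCNA in cNSF-HA minus that in PBS cells was 0.19 (adjusted p = 0.999), next to CHAF1B (0.15) and DNMT1 (-0.13, or -0.068 without replicate 3 of the cNSF-HA cells after tBHP). Between fNSF-HA and PBS cells the smallest p-values were those of DNMT1 (-0.24), ORC3 (0.34) and POLD1 (-0.63), with adjusted p = 0.667 for each, and without replicate 2 of the fNSF-HA cells after tBHP they were -0.21, 0.22 and -0.28. Between cNSF-HA and fNSF-HA cells they were those of MCM2 (0.36), FEN1 (0.25) and MCM7 (0.26), with adjusted p = 0.71 for each, and 0.22, 0.19 and 0.13 without that library. The 95% intervals of these differences reached 0.27 log2 units to either side at the median and stayed within 1 log2 unit of 0 for 50, 48 and 48 of the 50 genes, so a difference in response smaller than its own interval was not detectable with 3 libraries a group. For the 3 largest falls, the response in fNSF-HA minus that in PBS cells was 0.33 for POLE2, 0.27 for DBF4 and 0.16 for CDC7 (adjusted p = 0.667, 0.694 and 0.754). Without replicate 2 of the fNSF-HA cells after tBHP these were 0.19, 0.17 and 0.029.

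The counts after tBHP turned on single fNSF-HA libraries. Without replicate 3, 19 of the 50 genes were called between fNSF-HA and PBS cells (29.4% of all genes tested) and 19 between cNSF-HA and fNSF-HA cells (40.8%), and without replicate 2 it was 0 in both. In the first, 9 were higher in fNSF-HA cells (POLE2, DBF4, ORC5, PRIM1, ORC2, RFC4, ORC3, RRM1 and RFC1, median GC content 41.7%) and 10 lower (DNMT1, UHRF1, MCM7, MCM2, LIG1, MCM5, POLD1, TK1, CDT1 and CHAF1A, median 57.6%). When each library was weighted by its spread, 14 genes were called between fNSF-HA and PBS cells (20.4%) and 23 between cNSF-HA and fNSF-HA cells (38.6%), with 7 and 9 called for the differences in response (7.61% and 7.09%).

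The differences of fNSF-HA cells from the other pre-incubations after tBHP went with the GC content of the transcripts across the 50 genes, which ranged from 39.1% for RFC3 to 65.0% for POLD1. Pearson's r of GC content with the cNSF-HA minus fNSF-HA difference was 0.95 and Spearman's rho 0.94 over the 50 genes, which share the same libraries, so that this is a description with no test. Of the 25 genes with the higher GC content (48.1% to 65.0%), 23 were higher in cNSF-HA cells, and of the other 25 (39.1% to 47.9%), 24 were lower. For fNSF-HA minus PBS the r was -0.90, and for cNSF-HA minus PBS 0.22. Without replicate 2 of the fNSF-HA cells the first was 0.91 and the second -0.69. Without tBHP the r was 0.73 for cNSF-HA minus fNSF-HA, 0.65 for cNSF-HA minus PBS and -0.36 for fNSF-HA minus PBS, and 0.037, 0.093 and 0.057 with the trend below removed. Removing from each library a trend with GC content and length fitted over 12528 genes lowered the r of cNSF-HA minus fNSF-HA to 0.48. Such a removal is meant to lower it. As in limma without the removal, no replication gene passed the threshold in any of the HA comparisons after that. UHRF1 (0.31) and POLD1 (0.22) then had the largest differences. The r of GC content with the tBHP response itself was 0.55 for PBS, 0.52 for cNSF-HA and 0.10 for fNSF-HA, and -0.046, -0.045 and -0.16 with the trend removed. Without replicate 2 after tBHP, the r for fNSF-HA was 0.40. The lower-GC genes fell in 19, 17 and 15 cases of 25 and rose in 1, 1 and 1, where 40.0%, 39.8% and 30.1% of all genes in that GC range fell and 14.9%, 14.8% and 17.9% rose. The higher-GC genes fell in 8, 5 and 11 cases and rose in 3, 5 and 0, where 10.6%, 11.3% and 15.0% of all genes in that range fell and 37.5%, 37.4% and 25.1% rose. With the trend removed, falls were called more often among the 50 genes and also among all genes. Of the 50, 31, 31 and 35 fell in PBS, cNSF-HA and fNSF-HA cells (background 31.2%, 30.4% and 32.0%). As deposited, the background of falls was 26.9%, 26.8% and 22.7%. With the trend removed 3 rose in each (26.8%, 26.6% and 24.9%). In that setting 28 genes fell in all 3 pre-incubations (24.1% of all genes tested), 16 of them among the 20 named above, and PCNA rose in all 3 (20.1%). POLE2 changed by -1.37, -1.25 and -1.18, DBF4 by -0.95, -0.74 and -0.86 and CDC7 by -0.65, -0.65 and -0.71, so these 3 falls remained past the threshold and were smaller, except that of POLE2 in fNSF-HA cells.

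**Figure D5:**
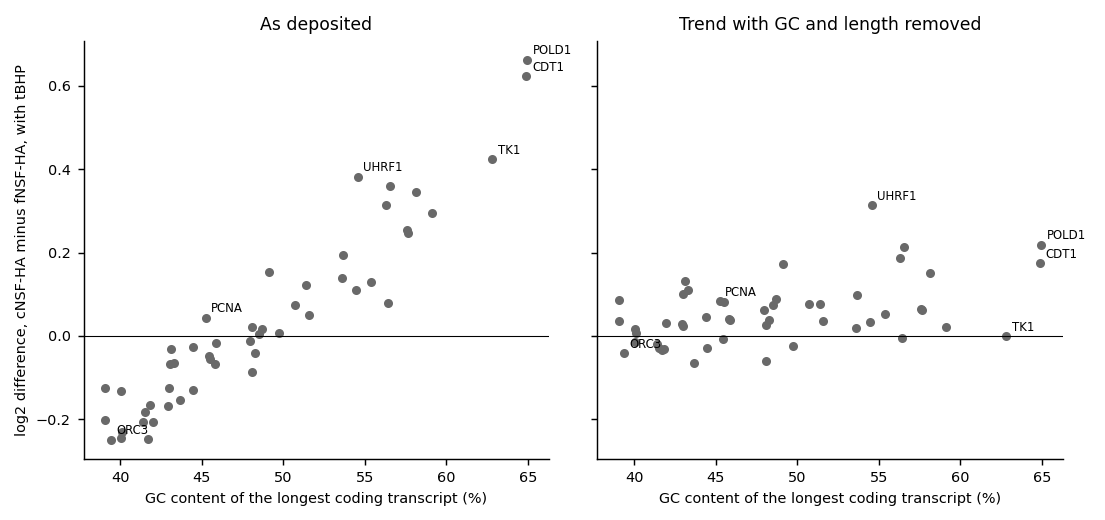
Difference with tBHP (y axis: log2, cNSF-HA minus fNSF-HA) against the GC content of the longest coding transcript (x axis, percent) for the 50 replication genes, as deposited (left) and with the trend of each library with GC content and length removed (right). On the left the points rise from -0.25 for ORC3 to 0.66 for POLD1 (r = 0.95), and on the right they lie closer to 0 (r = 0.48).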

How the data were processed

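RNA of IMR90 cells was sequenced in 18 libraries, 3 in each of 6 groups (PBS, cNSF-HA or fNSF-HA, each without or with tBHP), from polyA RNA as single-end reads of 100 nt. According to the submitters' processing notes, reads were trimmed with Trimmomatic 0.32, aligned to GRCh38.p7 with STAR 2.5.2b and counted with featureCounts of Subread 1.5.0-p3. The gene annotation is not given in the sources used here. The deposited values are a signal per gene, counts that the authors divided by DESeq2 size factors, and 3 further columns hold p-values, q-values and a ranking of the authors' own comparison, which were not used. Dividing each library's deposited signal by its smallest step gave whole reads for 100% of values (tolerance 0.01 reads), with 20261103 to 26287660 reads per library. These depths set the counting error, and the spread between libraries includes it.

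Because the deposited unit is a normalized signal, the main test was limma 3.58.1 (R 4.3.3) on log2(value + 1), with an intensity trend, 1 coefficient for each group, all 18 libraries and 13686 genes of a mean of at least 10. P-values were two-sided and adjusted by Benjamini-Hochberg over all genes tested, with a threshold of 0.05. A log2 difference on this scale understates the change of genes with low values. The 12 contrasts were the tBHP response in each pre-incubation, the pairs of pre-incubations without and after tBHP, and the differences between responses. Alternatives were pseudocounts of 0.1 and 5, every gene with a read (31441), a minimum mean of 50, TMM scaling, quantile normalization, edgeR 4.0.16 and DESeq2 1.42.0 on the recovered reads, only the groups compared, library weights, a replicate block, removal of a trend with GC content and length (12528 genes, longest coding transcript of GENCODE 29), and leaving out each library. The scripts were tested on simulated data. Values in every library are given for the 10 genes with the largest mean tBHP change among those called in all 3 pre-incubations, the genes that rose, the gene with the highest mean level in each of 8 roles, and the 3 genes with the smallest unadjusted p in each comparison between pre-incubations or responses. From the list of other replication genes the 3 largest rises and falls were named, and from the E2F and mitosis lists the 4 largest changes. The 50 genes and the other lists were chosen with earlier results of these data known.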

Additional observations from a re-analysis of the deposited data

How the results depend on the processing

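For the named genes, the tBHP change kept its direction and its side of the threshold in 771 of 828 combinations of gene, pre-incubation and setting, and in 369 of 414 on leaving out 1 library. The number of genes called higher in cNSF-HA cells was 2 with every gene with a read and 3 with the GC and length trend removed, against 6. In fNSF-HA cells it was 2 with TMM scaling, edgeR or DESeq2, 6 with library weights and 3 with the trend removed, against 1. Between pre-incubations, where 0 were called, cNSF-HA against fNSF-HA without tBHP gave 4 with only the groups compared and 1 with library weights. After tBHP, fNSF-HA against PBS gave 2 with DESeq2 and 14 with library weights, and cNSF-HA against fNSF-HA gave 2 and 23. The differences in response gave 7 (fNSF-HA against PBS) and 9 (cNSF-HA against fNSF-HA) with library weights. The cause was not tested.

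On leaving out 1 library, genes called higher ranged from 2 to 4 in PBS cells (2 without PBS replicate 3 or PBS tBHP replicate 3), from 2 to 6 in cNSF-HA cells (2 without cNSF-HA replicate 2, cNSF-HA replicate 3 or cNSF-HA tBHP replicate 3) and from 1 to 3 in fNSF-HA cells (3 without tBHP replicate 2). Genes called lower ranged from 23 to 25, 19 to 22 and 24 to 27. After tBHP, fNSF-HA against PBS and cNSF-HA against fNSF-HA each ranged from 0 to 19, with 19 without fNSF-HA tBHP replicate 3, and the first was 1 without PBS tBHP replicate 2. The other pairs and responses stayed at 0.

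With the trend removed, CHAF1B was -0.062 in PBS cells, POLA2 -0.027 in PBS and -0.049 in fNSF-HA cells, TYMS -0.014 in cNSF-HA and -0.011 in fNSF-HA cells, TK1 -0.054, -0.025 and -0.074 in PBS, cNSF-HA and fNSF-HA cells, LIG1 -0.057 in fNSF-HA cells, GINS4 -0.032 in PBS cells, and POLD2 -0.21 in PBS and -0.13 in cNSF-HA cells, of which POLD2 passed the threshold. As deposited, POLA2 with PBS (0.18) and TK1 (0.41) and TYMS (0.16) with cNSF-HA were called higher, and POLD2 with cNSF-HA was at 0.21. With fNSF-HA, TK1 was -0.0017 with quantile normalization, GINS4 0.029 with TMM scaling, 0.013 with quantile normalization and 0.032 with edgeR, and POLD2 0.011 with edgeR and 0.0040 with library weights. On leaving out 1 library, CHAF1B ranged from -0.025 to 0.036 for PBS, TK1 from -0.18 to 0.31 and LIG1 from -0.084 to 0.21 for fNSF-HA, GINS4 from -0.012 to 0.041 for PBS and from -0.084 to 0.034 for fNSF-HA, and POLD2 from -0.0017 to 0.12 for PBS and from -0.21 to 0.097 for fNSF-HA.

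The replicate numbers did not meet the criterion for pairing, a correlation of deviations above 0.1 in every pair: of 45 pairs of same-numbered libraries, 7 passed it. As a hint from the data, not the design, 13 of 18 libraries had their highest mean correlation of deviations with the libraries of their own number in the other groups. With the replicate block, 4 genes were called higher and 27 lower for PBS, 6 and 23 for cNSF-HA and 1 and 26 for fNSF-HA, with 0 in the other comparisons.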
